A study of Mus musculus with 2 samples.

Results

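GABAergic neurons marked by Meis2, Pax6 or Dlx6os1 transcripts made up 298 of 27160 barcodes with at least 500 UMIs (unique molecular identifiers, each counting 1 captured RNA molecule) in a single-nucleus data set of the mouse ventral tegmental area (VTA). They were 27 nuclei of the WT library and 271 nuclei of the CCI library. A nucleus was taken as a neuron where Snap25, Syt1, Meg3, Snhg11, Rbfox3 and Nefl together held at least 1% of its UMIs. It was taken as GABAergic with at least 2 UMIs and 0.04% of UMIs from Gad1, Gad2 and Slc32a1, and with under 0.1% from the dopaminergic genes Slc6a3, Slc18a2, Ddc and Th. Members were chosen by these sums together with the following: no Sst UMI, at least 3 UMIs and 0.05% of UMIs from Meis2, Pax6 and Dlx6os1 together, and more of these than of Gata2, Gata3, Tal1 and Pax5. The levels of all these genes in the members are therefore a description of the choice, and no test was made on them.

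The WT library came from wild type adult mice. The CCI library came from adult mice with chronic constriction injury (CCI) of the left sciatic nerve, which produces neuropathic pain; the right nerve was exposed without a ligature. Each condition was 1 library, made with 10x Genomics 3' chemistry. The labels do not give the number of animals pooled, the hemisphere, the sex or the time after injury, and whether the wild type animals had surgery is not said. The design text names nuclei as the material, whereas the protocol gives a dissociation of minced tissue with enzymes, and each barcode is called a nucleus below. With 1 library per condition no test between conditions was possible, and condition, animals, depth and dissection cannot be told apart.

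Meis2, Pax6 and the Dlx genes encode homeobox transcription factors that act in GABAergic lineages. In the developing forebrain, Dlx genes drive GABAergic fate, Meis2 is a cofactor of the TALE class that works with Dlx and Pax6 proteins, and Meis2 and Pax6 remain expressed in subsets of mature GABAergic neurons. In the midbrain and anterior hindbrain, GABAergic fate depends instead largely on Gata2, Gata3 and Tal1, so the rule separates neurons by which set of factors their transcripts show. Dlx6os1, also called Evf2, is a long noncoding RNA transcribed from the Dlx5 and Dlx6 locus.

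The 250 bases before the RefSeq start of 4 genes are shown. Of these, 3 define the members, and the fourth, Isl1, was among the genes outside the rule that were higher in the CCI members. They are from RefSeq on GRCm38.p6, the build that mm10 names, and read 5' to 3' on the gene's strand; for Pax6 and Dlx6os1 the first of 2 listed starts was used. The Meis2 window lies inside the Meis2 gene as the GENCODE annotation places it, at chr2:115863064-116065839. Capitals mark TAATTA, the palindromic core that many homeodomain proteins of the Dlx kind bind.
Meis2, chr2:116064620-116064869, minus strand: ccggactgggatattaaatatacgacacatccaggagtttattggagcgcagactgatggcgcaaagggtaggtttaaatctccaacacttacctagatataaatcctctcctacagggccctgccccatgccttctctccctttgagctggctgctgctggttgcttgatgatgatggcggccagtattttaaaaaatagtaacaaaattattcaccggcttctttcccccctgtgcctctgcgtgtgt
Pax6, chr2:105668646-105668895, plus strand: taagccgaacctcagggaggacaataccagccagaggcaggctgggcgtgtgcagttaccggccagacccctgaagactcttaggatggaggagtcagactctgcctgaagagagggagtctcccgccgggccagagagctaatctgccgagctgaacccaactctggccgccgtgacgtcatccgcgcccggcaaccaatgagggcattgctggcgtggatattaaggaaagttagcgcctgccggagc
Dlx6os1, chr6:6869534-6869783, minus strand: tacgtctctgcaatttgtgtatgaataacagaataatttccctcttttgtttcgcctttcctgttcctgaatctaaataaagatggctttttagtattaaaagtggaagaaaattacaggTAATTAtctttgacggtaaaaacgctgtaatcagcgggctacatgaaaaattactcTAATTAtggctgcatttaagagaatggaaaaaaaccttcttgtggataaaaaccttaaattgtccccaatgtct
Isl1, chr13:116309689-116309938, minus strand: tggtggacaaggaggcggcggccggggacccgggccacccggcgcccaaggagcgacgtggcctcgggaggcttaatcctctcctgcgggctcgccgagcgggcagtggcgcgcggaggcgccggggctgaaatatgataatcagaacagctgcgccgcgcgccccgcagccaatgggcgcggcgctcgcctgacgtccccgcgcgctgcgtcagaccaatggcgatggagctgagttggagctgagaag
Dlx6os1 held 2 copies of TAATTA, 130 and 74 bases before its start, and the windows of Meis2, Pax6 and Isl1 held none. TAATTA stood in 4.90% of 27025 RefSeq promoter windows of the same length. TGACAG, a core bound by Meis proteins, was searched on both strands and was in none of the 4 windows; it stood in 16.0% of all windows. These matches describe the letters in the windows and nothing else.

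The libraries differed in depth. The WT library held 14114 barcodes with a median of 975 UMIs and the CCI library 13736 barcodes with a median of 3652 UMIs, and 54 barcode sequences occurred in both. WT members had a median of 2482 UMIs (906 to 4964) and CCI members a median of 6203 UMIs (2150 to 27586). Their UMIs summed to 71328 in WT and 1913541 in CCI, so every WT level below rests on fewer molecules. Scrublet, which finds likely doublets, called 5 of 27 WT members (18.5%) and 20 of 271 CCI members (7.38%). The summed level of 13 oligodendrocyte markers was 1346 CPM (UMIs of a gene per 1e+06 UMIs of the summed nuclei) in WT members and 546 CPM in CCI members. Its part in the results below was not tested.

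The markers were all present in the CCI members and only in part in the WT members. Meis2 stood at 1229 CPM in the CCI members and 1570 CPM in the WT members, and 253 of 271 and 26 of 27 nuclei held a Meis2 UMI. Pax6 stood at 63.2 CPM in the CCI members, in 61 nuclei, and no WT member held a Pax6 UMI. Dlx6os1 stood at 78.4 CPM in CCI, in 80 nuclei; the 4 UMIs in WT came from 1 nucleus. With 27 nuclei, 0 with a Pax6 UMI leaves a share of up to 12.8% within the exact 95% interval. These counts are not at equal depth. With each nucleus thinned to 2000 UMIs, 0 of 19 WT members (up to 17.6%) and 10.7% of CCI members held a Pax6 UMI. Among factors that the rule did not use, Dlx1 held 30 UMIs in CCI members and none in WT members, and Dlx5, Sp9, Isl1 and Six3 also had no UMI in WT members. Dlx2 had 1 UMI in WT members (1 of 27 nuclei) and 4 UMIs in CCI members (3 of 271 nuclei). Gata3, which the rule allows below the level of Meis2, stood at 140 CPM in WT members, with a UMI in 8 of 27 nuclei, and at 14.6 CPM in CCI members, with a UMI in 19 of 271. Of the 27 WT members, 26 thus met the rule with Meis2 UMIs, and 1 with Dlx6os1 UMIs and no Meis2 UMI.

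The rule asks for 3 UMIs whatever the depth, and this minimum bound more in WT. The share of UMIs from Meis2, Pax6 and Dlx6os1 ran from 0.0604% to 0.552% in WT members (median 0.167%) and from 0.0503% to 0.395% in CCI members (median 0.130%). Exactly 3 such UMIs were held by 10 WT members, with a median share of 0.130%, and by 22 CCI members, with a median of 0.0644%. Just outside, 31 WT and 90 CCI nuclei had 2 such UMIs, with median shares of 0.0900% and 0.0280%. A further 46 CCI nuclei and no WT nucleus had 3 or more such UMIs but under 0.05%. The 3-UMI minimum was the higher limit for the WT members and the 0.05% minimum for the deeper CCI members.

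**Figure D1:**
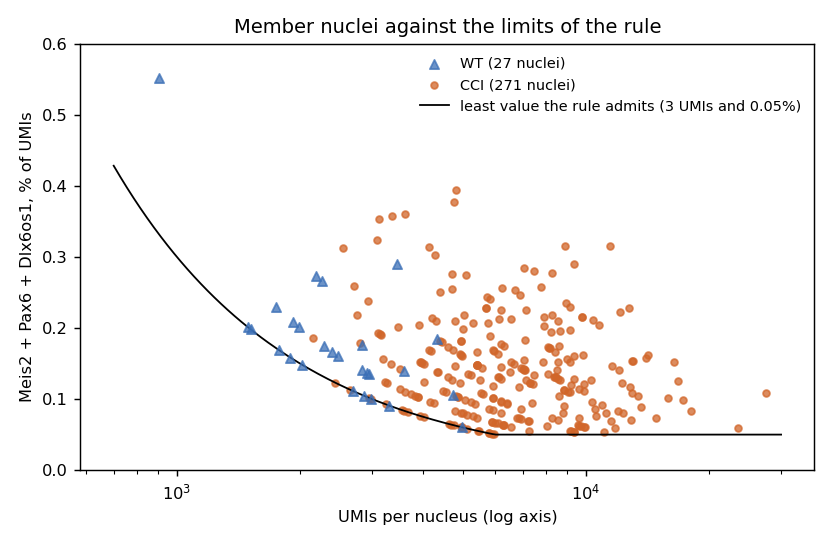
Each point is a member nucleus, placed by its UMIs (x, log axis) and by the percentage of UMIs from Meis2, Pax6 and Dlx6os1 (y), for WT (triangles, 27 nuclei) and CCI (circles, 271 nuclei). The line is the least value the rule admits; WT members lie over its sloping part, set by 3 UMIs, and deeper CCI members over its flat part at 0.05%.

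Members were a larger share of the GABAergic nuclei in the CCI library. They were 27 of 577 GABA-gated nuclei in WT (4.68%, exact Clopper-Pearson 95% interval 3.11% to 6.74%) and 271 of 1622 in CCI (16.7%, 14.9% to 18.6%), a log2 ratio of 1.84 (1.26 to 2.46). Of neuron-gated nuclei they were 0.402% in WT and 3.69% in CCI. Of the other GABA-gated nuclei, 8 in WT and 35 in CCI, called the Gata type here, had no Sst UMI and more Gata2, Gata3, Tal1 and Pax5. Their UMIs of these genes also had to reach a minimum count and share, as asked of members. A further 18 and 259 nuclei had an Sst UMI, and 524 and 1057 nuclei remained. Among the remaining nuclei a Gata3 UMI was still found in 52 WT and 113 CCI nuclei, and a Pax5 UMI in 49 and 59. Of the nuclei with an Sst UMI, 1 in WT and 105 in CCI met every other part of the rule. Dlx6os1 and Pax6 UMIs were not particular to members. In CCI a Dlx6os1 UMI was in 29.5% of members, 17.3% of remaining nuclei and 24.3% of nuclei with an Sst UMI. The Pax6 shares were 22.5%, 6.62% and 20.5% in the same order, and those of Meis2 were 93.4%, 12.6% and 57.1%.

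When every nucleus was first thinned to 2000 UMIs and shallower ones were left out, members were 8 of 204 GABA-gated nuclei in WT (3.92%, 1.71% to 7.58%) and 85 of 793 in CCI (10.7%), a log2 ratio of 1.45. The share of neuron-gated nuclei then had a log2 ratio of 1.85 in place of 3.20. Thinned to 1000 UMIs, 1 of 182 WT and 13 of 264 CCI nuclei met the rule. At a minimum share of 0.2%, members were 8 WT (1.39%) and 54 CCI nuclei (3.33%); in the shallowest WT nuclei 3 UMIs are more than 0.2%, so the 3-UMI minimum still bound there. The CCI share was higher under every setting plotted, with 95% intervals of the log2 ratio that did not hold 0; these cover counting error within 2 libraries, not the spread between animals.

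**Figure D2:**
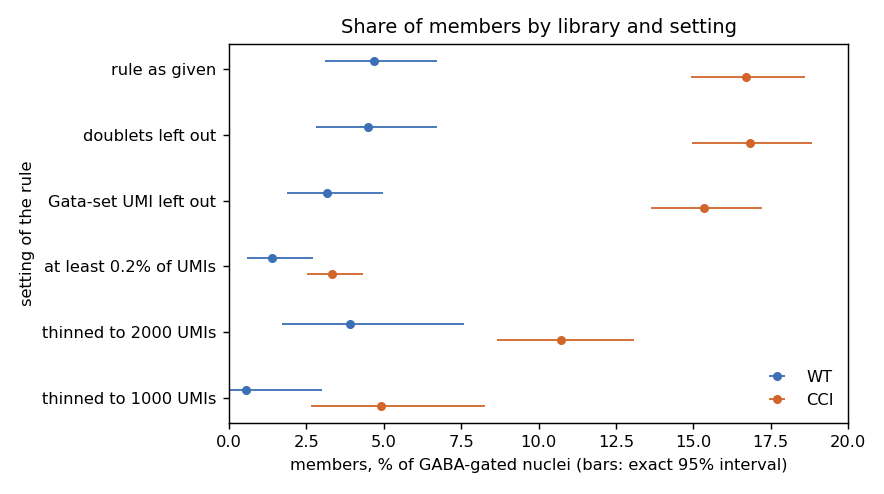
Members as a percentage of GABA-gated nuclei (x) under 6 settings of the rule (y), with exact 95% counting intervals, in WT (blue) and CCI (orange). The CCI point lies to the right of the WT point in each setting, from 3.33% to 16.8% for CCI and from 0.549% to 4.68% for WT.

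The members were not uniform. In the CCI library 58 members (21.4%) held a Dlx6os1 UMI and no Pax6 UMI, 39 (14.4%) a Pax6 UMI and no Dlx6os1 UMI, 22 (8.12%) both, and 152 (56.1%) neither. The last group rests on Meis2 alone: all 152 held a Meis2 UMI. In WT 26 of 27 members were of this last kind and 1 was of the Dlx6os1 kind. Median depths were alike across the 4 CCI groups, 6557, 7119, 6431 and 5923 UMIs. Because the WT library held 1 nucleus of these kinds, the groups are compared within the CCI library, with exact intervals that cover counting error and with no test.

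Between the Dlx6os1 and the Pax6 group, 255 of 6168 genes (4.13%) were at least 1.5-fold higher in the Dlx6os1 group with an interval not holding 0, and 171 (2.77%) were lower. Dlx1, the homeobox gene of another Dlx cluster, had 42.8 CPM in the Dlx6os1 group, 3.05 CPM in the Pax6 group, 12.8 CPM in the group with both and 8.12 CPM in the group with neither. Il1rapl2, an interleukin-1 receptor family member of synapses, had 766, 131, 514 and 440 CPM in the same order, a log2 ratio of the first 2 groups of 2.55 (2.09 to 3.04). Erbb4, the neuregulin receptor of many GABAergic neurons, had 1648, 643, 739 and 1179 CPM, a log2 ratio of 1.36 (1.13 to 1.59). Transcripts of Nfib and Sox5, both transcription factors of neuronal differentiation, were also higher beside Dlx6os1, with log2 ratios of 2.79 and 2.44. Dlx1 and Sox5 each overlap an antisense gene. Npy, a peptide of many forebrain interneurons, had 25 UMIs in the Dlx6os1 group, 1 in the Pax6 group, 0 in the group with both and 12 in the group with neither. Over all CCI members Npy was in 15 nuclei, and 18 of its 38 UMIs came from 1 nucleus.

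The Pax6 group had other leading genes. Tafa1, which encodes a secreted chemokine-like protein, had 1015 CPM there, 290 CPM in the Dlx6os1 group, 610 CPM in the group with both and 309 CPM in the group with neither, a log2 ratio of the Dlx6os1 over the Pax6 group of -1.81 (-2.11 to -1.51). Dach1, a transcriptional cofactor, had 741 CPM in the Pax6 group, 257 CPM in the Dlx6os1 group, 694 CPM with both and 181 CPM with neither. Ndst4, a heparan sulfate sulfotransferase, had 226 and 40.5 CPM in the Pax6 and Dlx6os1 groups. Cntn5, a contactin of synaptic adhesion, had 3655 and 1833 CPM. Cdh23, Pde11a, Cemip, Otof and the potassium channel subunit Kcns3 were also higher in the Pax6 group, with log2 ratios of -2.08, -2.08, -1.98, -2.27 and -2.12. For Dach1 and Cemip the nuclei with both UMIs lay nearer the Pax6 group than the Dlx6os1 group, and for Nfib nearer the Dlx6os1 group. Meis1, the close paralog of Meis2, was highest in nuclei with neither UMI, at 201 CPM against 54.0, 57.9 and 32.1 CPM in the Dlx6os1 group, the Pax6 group and the group with both.

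Of GABA-A receptor subunits 1 of 11 measured differed in favour of the Dlx6os1 group, Gabra3, and none in favour of the Pax6 group. These counts are to be read beside 4.13% of all genes higher and 2.77% lower in the Dlx6os1 group, which were not matched to the lists in level. Of 25 synaptic adhesion genes, 24 were measured and 4 were higher in the Pax6 group (Cntn4, Cntn5, Cntn6 and Cntnap4), none in the Dlx6os1 group. Of 19 cadherins 5 were higher in the Dlx6os1 group, among them Cdh13 (513 against 262 CPM), and 1 was lower, Pcdh17. Gad1 was higher in the Dlx6os1 group (232 against 125 CPM) and Slc32a1, which encodes the vesicular GABA transporter, in the Pax6 group (192 against 124 CPM); both are in the rule, which used them only as a sum.

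**Figure D3:**
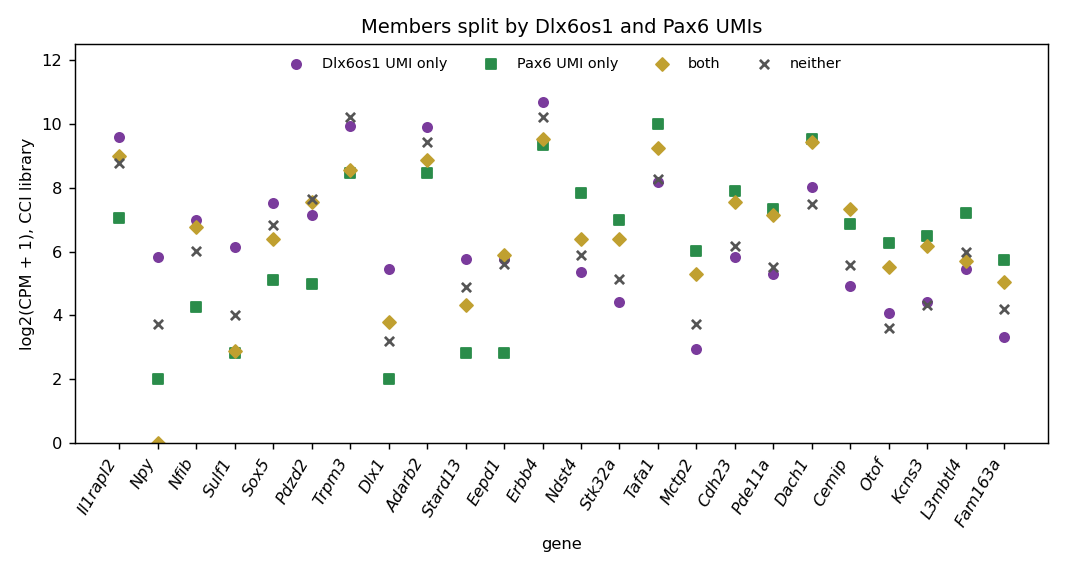
Levels on a log2(CPM + 1) scale (y) of the 24 genes named by rule (x) in the 4 groups of CCI members split by Dlx6os1 and Pax6 UMIs. The 12 genes on the left are higher in the Dlx6os1 group and the 12 on the right in the Pax6 group, as with Il1rapl2 (766 against 131 CPM) and Tafa1 (290 against 1015 CPM).

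Against the remaining GABA-gated nuclei, the members had more transcripts of a Meis2 neighbour, Chrm2, Rnf220, Kcnmb2 and Kcns3. They had fewer of Ebf1, Ebf3, Tcf7l2, Foxp2, Adarb2 and Nts. Meis1, Isl1 and Gfra2 were higher in CCI members but not in WT members. For Rnf220, Kcnmb2, Kcns3, Ebf1, Ebf3, Tcf7l2 and Nts the counting interval of the WT difference held 0. UMIs were summed per library and class, and the 8 sums were fitted with edgeR's quasi-likelihood test with the library as a block. The 2 libraries stand in for replicates there, with 3 residual degrees of freedom, and they also differ in condition and depth. Of 10150 genes tested, 22 outside the rule were higher in the members (0.217%) and 25 were lower (0.246%) at an adjusted p under 0.05. DESeq2 on the same sums called 1 higher and none lower, with 54 genes at an unadjusted p under 0.05 against 388 in edgeR. The calls that follow are therefore those of edgeR alone unless said otherwise.

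The 1 gene that both tools called was G630016G05Rik, a long noncoding RNA, which was singled out after its values were seen. It lies at chr2:116067225-116085911 (mm10, plus strand), and its start is 1386 bases from the 5' end of the Meis2 gene, which lies at chr2:115863064-116065839 on the minus strand. It had 4 UMIs in WT members (56.1 CPM) and 115 UMIs in CCI members (60.1 CPM). The remaining nuclei had 6 UMIs in WT (5.10 CPM) and 11 UMIs in CCI (1.49 CPM), and the Gata type had none in either library. Nuclei with an Sst UMI, of which 105 of 259 in CCI met the other parts of the rule, had 67 UMIs (35.0 CPM) in CCI and none in WT. The log2 difference from the remaining nuclei was 4.86 (SE 0.38, edgeR adjusted p = 8.98e-33) and 4.51 in DESeq2 (adjusted p = 0.00478). A UMI of it was found in 92 of 271 CCI members (33.9%) and in 11 of 1057 remaining CCI nuclei (1.04%). It does not overlap Meis2, but whether counting used strand is not given in the sources used here. Most members were chosen by their Meis2 UMIs, so the call of this neighbour is not independent of the choice. It is counted among the 22 genes that edgeR called higher.

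Isl1, Meis1 and Gfra2 were called higher in members, and in each the WT members held at most 2 UMIs. Isl1, a LIM homeobox factor, had 75 UMIs in CCI members (39.2 CPM) and none in WT members, against 9.86 and 2.55 CPM in the remaining nuclei, a log2 difference of 1.96 (SE 0.34, edgeR adjusted p = 4.52e-06). It was in 18.8% of CCI members (14.3% to 24.0%), 4.92% of remaining CCI nuclei, 22.8% of CCI nuclei with an Sst UMI, 0 of 35 nuclei of the Gata type, and 0 of 128 CCI nuclei with at least 2% oligodendrocyte UMIs. After thinning each nucleus to 2000 UMIs the first 3 shares were 8.49%, 2.11% and 9.65%. Meis1 had 246 UMIs in CCI members (129 CPM) and 1 UMI in WT members (14.02 CPM), against 25.3 and 31.4 CPM in the remaining nuclei, a log2 difference of 2.09 (SE 0.25, edgeR adjusted p = 3.42e-13) that held in CCI and went the other way in WT. A Meis1 UMI was also in 35.2% of the CCI nuclei with oligodendrocyte UMIs, above the 29.5% of members, so its share of nuclei is not a mark of the members. Gfra2, the neurturin receptor, had 164 CPM in CCI members and 66.1 CPM in the remaining nuclei, a log2 difference of 1.15 over both libraries (edgeR adjusted p = 0.00166); in WT its level was 28.0 CPM in members, 2 UMIs, and 39.9 CPM in the remaining nuclei.

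Chrm2, the M2 muscarinic acetylcholine receptor, was higher in members in both libraries. Its level was 827 CPM in WT members and 355 CPM in CCI members, against 256 and 223 CPM in the remaining nuclei, a log2 difference of 1.05 (SE 0.25, edgeR adjusted p = 0.0052). Without the nuclei called as doublets it was 0.90 and edgeR no longer called it. Rnf220, a ubiquitin ligase, had 436 CPM in CCI members and 112 CPM in the remaining CCI nuclei, with 140 and 110 CPM in WT, a log2 difference of 1.43 (SE 0.27); nuclei with an Sst UMI had 351 CPM in CCI and 74.8 CPM in WT. Kcnmb2, an auxiliary subunit of BK potassium channels, had 476 against 149 CPM in CCI and 154 against 139 CPM in WT, a log2 difference of 1.18 (SE 0.27). Its level in nuclei with an Sst UMI was above that of the members, at 593 CPM in CCI and 224 CPM in WT. Kcns3, Cdh24, Stk32a and Chn2 completed the genes named by rule, with log2 differences of 1.64, 1.42, 1.07 and 0.92. Npy was called as well (log2 2.72), with no UMI in WT members and with 18 of 38 CCI UMIs in 1 nucleus.

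Of the 12 genes named as lower in members, Ebf1, Ebf3 and Tcf7l2 encode transcription factors. Ebf1 had 18.3 CPM in CCI members and 112 CPM in the remaining CCI nuclei, with 56.1 and 127 CPM in WT, a log2 difference of -2.48 (SE 0.30, edgeR adjusted p = 3.42e-13). Ebf3, of the same family, had 8.36 against 45.7 CPM in CCI and 0 against 29.7 CPM in WT (log2 -2.47). Tcf7l2, a Wnt effector of thalamic and tectal neurons, had 24.0 against 78.1 CPM in CCI and 28.0 against 93.4 CPM in WT (log2 -1.68). Adarb2 had 677 against 1191 CPM in CCI and 140 against 1497 CPM in WT (log2 -1.49); 1 CCI member carried 211 of its 1295 UMIs. Foxp2 and Zfpm2, both transcriptional regulators, had log2 differences of -1.22 and -1.05. Nts, the neurotensin gene, had 5 UMIs in 271 CCI members against 157 UMIs in 1057 remaining nuclei (log2 -2.97). Lower levels than in the remaining CCI nuclei were not particular to members. In CCI nuclei with an Sst UMI, Ebf1, Ebf3, Tcf7l2 and Nts stood at 31.4, 20.4, 48.1 and 14.1 CPM, between the 2 classes. Adarb2 stood at 594 CPM there, below the members, but at 997 CPM in the 18 WT nuclei with an Sst UMI. Of 22 midbrain and rhombomere-1 GABAergic factors 6 were tested, and 2 of these were lower and none higher. None of 11 GABA-A subunits, 17 ionotropic glutamate receptor subunits or 25 genes of the potassium and HCN channel list, which does not hold Kcns3 and Kcnmb2, were called by edgeR. With the rule applied after thinning to 2000 UMIs, edgeR called Kcnmb2 higher and Adarb2 lower and no other of the 2906 genes tested, with 87 at an unadjusted p under 0.05.

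**Figure D4:**
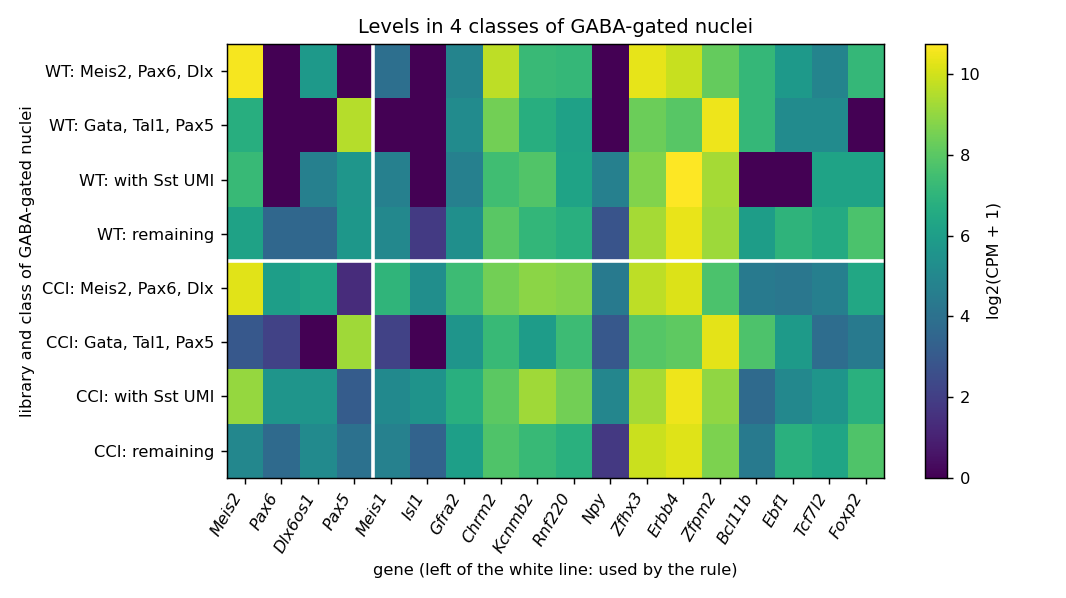
Levels as log2(CPM + 1) (colour) of 18 genes (columns) in the 4 classes of GABA-gated nuclei in WT and CCI (rows); genes left of the white vertical line were used by the rule. The Isl1 and Npy columns are dark in WT members, which held no UMI of either, and Zfpm2 is brightest in the Gata type of both libraries, with 1415 and 1255 CPM in WT and CCI.

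Against the Gata type the differences were more numerous, although that class held 8 WT and 35 CCI nuclei. Pax5 was its most frequent marker, with a UMI in 8 of 8 WT and 32 of 35 CCI nuclei, whereas 2 and 9 nuclei held a Gata3 UMI. Gata3 did not set the class apart in WT, where its level was 106 CPM, below the 140 CPM of members. In CCI the class had 50.7 CPM of Gata3 and members 14.6 CPM. edgeR called 94 genes higher in members (0.926%) and 67 lower (0.66%), and DESeq2 called 28 and 27; 51 of the 55 DESeq2 calls were also edgeR calls in the same direction. Erbb4 had 925 and 1160 CPM in WT and CCI members and 248 and 271 CPM in the Gata type, a log2 difference of 2.04 (SE 0.32, edgeR adjusted p = 4.76e-08). Zfhx3, Zfhx4 and Tshz2, zinc-finger homeobox factors, were higher by 2.04, 2.32 and 2.46 on the log2 scale, and Zfhx3 had 1318 and 812 CPM in members against 318 and 244 CPM. Pcdh9, a protocadherin, and Gria3, an AMPA receptor subunit, were higher by 1.62 and 1.56. These 6 genes also passed in DESeq2. Rgma, Onecut2, Spp1 and Isl1 had no UMI in the Gata type of either library, so their fitted differences depend on the fit and are not given as folds.

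Zfpm2, a cofactor of GATA factors, was lower in members than in the Gata type, at 294 and 205 CPM against 1415 and 1255 CPM, a log2 difference of -2.42 (SE 0.29, edgeR adjusted p = 1.93e-13). Pax8, a paired box factor related to Pax5, had no UMI in any member and 4 and 14 UMIs in the Gata type. Tmem132c had no UMI in WT members and 64 UMIs in CCI members (33.4 CPM) against 177 and 392 CPM in the Gata type. Chd7, a chromatin remodeller, Cdh4 and Cdh9 had log2 differences of -2.58, -1.94 and -1.75, and all 3 passed in DESeq2. Bcl11b, a zinc-finger factor, was lower in the fit (log2 -2.82) through CCI, with 19.9 against 217 CPM, while WT had 140 against 141 CPM, and DESeq2 gave an adjusted p of 0.207. Of 11 GABA-A subunits tested 2 were lower and none higher; Gabrb2, with a log2 difference of -1.10, did not pass in DESeq2 (adjusted p = 0.123). With the rule applied after thinning to 2000 UMIs, edgeR called 30 genes higher and 4 lower among the 2906 tested, and Zfhx3, Pcdh9 and Cdh4 were still called. Zfpm2 then had a log2 difference of -0.19 and was not called.

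Between conditions, CCI members had more Prkg1, Asic2, Fgf13 and Tafa1 transcripts than WT members and fewer of Sgcz, Gabrb2, Chrm2 and Pcdh9. The ratios are of CPM summed over members, with exact 95% counting intervals. Of 9667 genes with at least 20 UMIs, 175 (1.81%) were at least 1.5-fold higher in CCI with an interval not holding 0, and 278 (2.88%) were lower. The intervals are per gene and are not adjusted for the number of genes. The median log2 ratio over all genes was -0.04. TMM scaling (trimmed mean of M values) moved every log2 ratio up by 0.24, and the counts became 346 higher and 133 lower. In the remaining GABA-gated nuclei, with more UMIs, 5.52% of 14104 genes were higher and 3.15% lower. The 2 groups of members also differ in makeup, since the WT members held no Pax6 UMI and 4 Dlx6os1 UMIs.

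Prkg1, the cGMP-dependent protein kinase, had 28 UMIs in WT members (393 CPM) and 3402 UMIs in CCI members (1778 CPM), so that the log2 ratio was 2.18 (1.65 to 2.77); in the remaining GABA-gated nuclei its levels were 773 and 1075 CPM. It was in 12 of 27 and 243 of 271 nuclei. Asic2, an acid-sensing ion channel, stood at 1486 CPM (106 UMIs) in WT members and 4094 CPM in CCI members, with a log2 ratio of 1.46 (1.19 to 1.75), against 1771 and 2658 CPM in the remaining nuclei. Both ratios were larger with the rule applied after thinning to 2000 UMIs, at 3.35 and 2.03. That rule left 8 WT members, so these ratios rest on fewer WT molecules. Kirrel3, a synaptic adhesion molecule, had 687 and 1678 CPM in WT and CCI members (log2 1.29). Fgf13, which binds sodium channels inside the cell, had 84.1 CPM from 6 UMIs in WT and 461 CPM in CCI (log2 2.45). Hs3st4 and Hs3st5, both heparan sulfate 3-O-sulfotransferases, had log2 ratios of 2.03 and 1.96 from 12 and 6 WT UMIs.

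Several of the largest ratios rest on very few WT molecules. Fign, a microtubule-severing protein, had 1 UMI in WT members (14.02 CPM) and 351 UMIs in CCI members (183 CPM), a log2 ratio of 3.71 (1.22 to 9.02). Ubash3b, a phosphatase, had 2 WT UMIs (log2 3.35). Under the 2000-UMI rule the log2 ratios of Fign and Ubash3b were 0.76 and 0.89. Tafa1 (chr6:96113154-96657198, plus strand) had 6 WT UMIs (84.1 CPM), 450 CPM among CCI members and a log2 ratio of 2.42 (1.29 to 3.87). Dach1 had 4 WT UMIs (56.1 CPM), 336 CPM among CCI members and a log2 ratio of 2.58. Among members with neither a Pax6 nor a Dlx6os1 UMI, the ratios of Tafa1 and Dach1 were 1.83 and 1.64, and that of Dach1 was 0.05 under the 2000-UMI rule.

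Sgcz, a sarcoglycan gene (chr8:37522298-38661508, minus strand), was among the most abundant of the lower genes, at 7837 CPM (559 UMIs) in WT members and 3611 CPM (6910 UMIs) in CCI members, a log2 ratio of -1.12 (-1.24 to -0.99). It was 3567 and 2695 CPM in the remaining nuclei, so members had the higher level in both libraries. Pcdh9 had 8594 CPM in WT and 5108 CPM in CCI (log2 -0.75), with 5733 and 3780 CPM in the remaining nuclei. Gabrb2 had 799 CPM from 57 UMIs in WT and 324 CPM in CCI (log2 -1.30), against 574 and 431 CPM. Chrm2 had 827 CPM from 59 UMIs in WT and 355 CPM in CCI (log2 -1.22, -1.61 to -0.81), against 256 and 223 CPM. Chrm2, Npas3 and Arpp21, and Hs3st4 among the higher genes, overlap a gene on the other strand, whose reads cannot be told apart without strand. At a minimum share of 0.2% the log2 ratios of Sgcz and Chrm2 were -0.51 and -0.34, those of Tafa1 and Fgf13 were 0.65 and 0.73, and that of Prkg1 was 2.90. Shisa6, an auxiliary subunit of AMPA receptors, had 294 CPM (21 UMIs) in WT members and 84.7 CPM in CCI members (log2 -1.80), while the remaining nuclei had 135 and 214 CPM. Srrm4os, which overlaps Srrm4 on the other strand, Dpyd, Mitf, Sgcd, Npas3, Arpp21 and Ahcyl2 completed the list, with log2 ratios from -2.01 to -0.91.

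**Figure D5:**
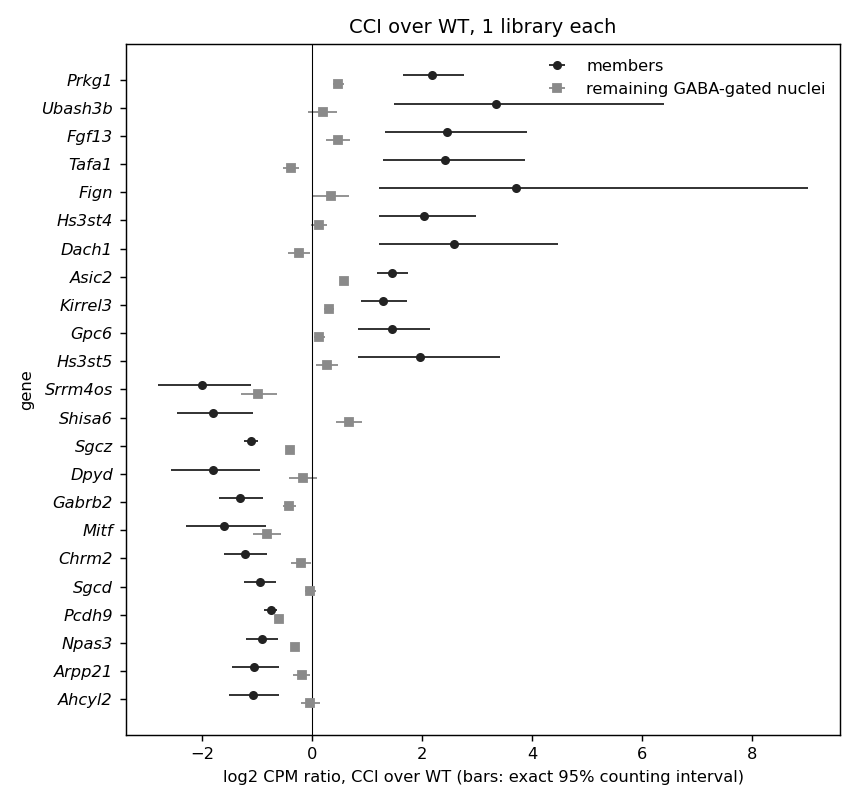
Log2 CPM ratio of CCI over WT (x), with exact 95% counting intervals, for genes named by rule (y), in members (circles) and in the remaining GABA-gated nuclei (squares). Tafa1, Dach1 and Shisa6 lie on opposite sides of 0 in the 2 kinds of nuclei, and the interval of Fign is the widest, with 1 UMI in WT members.

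Receptor and channel genes differed in both directions between the libraries. Of 11 GABA-A subunits measured, 3 were higher in CCI members, Gabrg3 (519 CPM in WT to 1092 CPM in CCI), Gabrb1 (589 to 981 CPM) and Gabra3 (4 WT UMIs), and 3 were lower, among them Gabrb2 and Gabra5 (6 WT UMIs), with a list median of 0.02. Of 16 ionotropic glutamate receptor subunits measured, 4 were higher and none lower: Gria1 (280 to 638 CPM), Grik2 (1654 to 2527 CPM), Grik1 and Grin3a; the median was 0.19. Of 20 sodium and calcium channel genes 4 were higher, Cacna2d3 (210 to 493 CPM), Cacna1e, Cacna2d2 and Scn3a, and Scn9a was lower; the median was 0.49. Of 26 potassium and HCN channel genes 5 were higher and none lower, among them Kcnb2 and Kcnh7 (463 to 843 CPM). Medians stand beside -0.04 over all genes, and calls beside 1.81% higher and 2.88% lower. Those percentages count 1406 sparse genes, of 9667, that had no usable ratio. The potassium and HCN list held 1 such gene and the other lists of this paragraph 0. Sparse genes are harder to call, so the percentages cannot show whether these lists exceed genes of like level, which was not tested. Without nuclei called as doublets, 1 of 16 ionotropic glutamate receptor subunits, 1 of 20 sodium and calcium channel genes and 1 of 25 potassium and HCN channel genes were higher, 1 of the 20 was lower, and 2 of 11 GABA-A subunits were higher and 2 lower.

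Cadherin and axon guidance genes also differed in both directions. The counts of this paragraph stand beside 1.81% of all genes higher and 2.88% lower, and genes of like level were not compared. Of 19 cadherins 5 were lower, Pcdh9, Pcdh11x, Cdh12, Cdh18 and Cdh22, and 2 were higher, Cdh13 and Pcdh15, with a median of -0.28. Of 26 measured axon guidance genes 6 were lower, among them Dcc (2243 to 1286 CPM), Unc5d (1472 to 813 CPM) and Ephb1 (589 to 298 CPM), and 3 were higher, Slit1, Slit2 and Sema5a. With TMM scaling the cadherin median was -0.04 and the axon guidance median changed from -0.07 to 0.16, beside 0.20 over all genes. Of 20 nuclear genes of oxidative phosphorylation, all measured, none passed, with a median of 0.36.

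Some mitochondrially encoded and oligodendrocyte transcripts were lower in the CCI members. Their counts stand beside 2.88% of all genes lower and 1.81% higher, without a match in level. Of 12 mitochondrially encoded genes measured, 6 were lower in CCI members and none higher, with a median of -1.0, and their summed level was 4080 CPM in WT members and 2115 CPM in CCI members. Of 10 measured oligodendrocyte markers 3 were lower in CCI members, among them Mobp and Mbp, with log2 ratios of -2.70 and -1.21, and the list median was -0.16; without doublets 1 of 9 was lower, with a median of -1.18. The summed astrocyte markers were 322 CPM in WT and 316 CPM in CCI, those of microglia 112 and 114 CPM, and fibroblast markers had no UMI in WT members. The part of these transcripts in the ratios above was not tested.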

How the data were processed

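The deposited matrices hold whole-number UMI counts per gene and barcode, made by the authors with Cell Ranger 7.1.0, per the file headers, on mm10, per the submitters' processing notes, which also name Seurat. The annotation release, the use of intronic reads and the strand setting are not given in the sources used here. The members and gene lists were chosen with earlier results of these data known.

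UMIs were summed per library and class in Python 3.11.15 (NumPy 2.4.6, SciPy 1.17.1, pandas 2.3.3), and CPM is per 1e+06 UMIs of that sum. With 1 library per condition, CCI over WT is a log2 CPM ratio with an exact 95% interval that covers counting error only. A gene with at least 20 UMIs was called where the ratio was at least 1.5-fold and the interval did not hold 0. Classes were compared with edgeR 4.0.16 (R 4.3.3; quasi-likelihood, TMM, Benjamini-Hochberg adjustment over all genes tested, library as a block), with DESeq2 1.42.0 as an alternative. Both computations were tested on simulated data. Doublets were kept, and called with Scrublet in Scanpy 1.11.5 for an alternative. Genes of the rule, and genes overlapping them, were left out of counts of calls; G630016G05Rik, next to Meis2, was kept in.

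Named CCI over WT genes had at least 100 UMIs and were the 12 in each direction with the interval bound farthest from 0. Named class genes had an adjusted p under 0.05, 1 direction in both libraries and at least 10 CPM, and were the 12 with the largest differences each way. Mitochondrial, ribosomal, glial, sex-linked and unnamed genes were not named by these rules, and members of the lists were added by level or call; results for a few genes are not reported here. The planned test of Dlx6os1 against Pax6 nuclei was replaced by ratios within CCI, since WT held no Pax6 nucleus. Figures were drawn with Matplotlib 3.10.9. Of 32285 gene IDs, 99.8% were in GENCODE vM21, used for coordinates.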

Additional observations from a re-analysis of the deposited data

Results flagged for a closer look

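Among the genes named for CCI over WT, 3 differed in opposite directions in the members and in the remaining GABA-gated nuclei, with 1 library per condition in each, and the difference between the 2 kinds of nuclei was not tested. The log2 ratio of Tafa1 was 2.42 in members and -0.38 in the remaining nuclei, and that of Dach1 2.58 and -0.25. The member ratios of Tafa1 and Dach1 rest on 6 and 4 WT UMIs and were smaller under other settings given above. Shisa6 went the other way, with -1.80 in members and 0.66 in the remaining nuclei.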

How the results depend on the processing

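The CCI share of members was above the WT share under every setting run; its log2 ratio was 1.85 of neuron-gated nuclei when thinned to 2000 UMIs and 3.16 of GABA-gated nuclei when thinned to 1000 UMIs. The 175 genes higher in CCI members became 108 without doublets, 33 at a 0.2% minimum, 68 with members thinned to 1000 UMIs, 346 with TMM scaling, 52 with the rule applied at 2000 UMIs, and 92 without members holding a Gata2, Gata3, Tal1 or Pax5 UMI. The 278 lower became 83 at 0.2%, 100 with thinned members, 133 with TMM, 174 with at least 100 UMIs, and 76 at 2000 UMIs. The median of mitochondrially encoded genes was -0.62 at 0.2%, -0.55 with thinned members and -0.31 at 2000 UMIs. Single log2 ratios changed sign at 0.2% for Npas3 (0.034), Gabrb1 (-0.13), Nsf (1.33) and mt-Nd4 (0.066), with thinned members for Syt2 (0.48), and at 2000 UMIs for Foxp1 (1.22), Epha6 (0.27), Pcdh11x (0.13) and mt-Nd4 (0.18). Against the Gata type, DESeq2 called 28 higher and 27 lower and the 2000-UMI rule 30 and 4, with sign changes for Bcl11b (0.52), Gabrb2 (0.23), Htr2c (1.37) and Kcnd3 (0.96). Against the remaining nuclei, DESeq2 called 1 and 0, no filter 44 and 46, and the 2000-UMI rule 1 and 1. With no replicate block for the library, 15 genes were higher and 16 lower against the remaining nuclei, 30 of these 31 among the calls with the block, and 84 and 55 against the Gata type. The cause of these shifts was not tested.

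No paired analysis was possible because each condition was 1 library. The 2000-UMI rule, the removal of nuclei with Gata-set UMIs and the restriction to members with neither Pax6 nor Dlx6os1 were chosen after seeing the data. The test between Dlx6os1 and Pax6 nuclei with its alternatives, equal weighting of the 4 groups, and gene ratios and class fits on the 1000-UMI rule were not run, since WT held 1 member or none there. Depth limits every WT value: 71328 UMIs stand behind the 27 WT members, so a single UMI is 14.02 CPM.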
